A study of Mus musculus with 2 samples.

Results

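The genes described are 10 members of the bone morphogenetic protein (BMP) and transforming growth factor β (TGF-β) signalling system, taken by gene symbol from the 32285 genes of the count tables: the ligands *Bmp4*, *Bmp5*, *Bmp6*, *Tgfb1*, *Tgfb2* and *Tgfb3*, the receptors *Bmpr2*, *Tgfbr1* and *Tgfbr2*, and the target gene *Id1*. Their UMI counts were compared across lung cell types in 2 droplet-based scRNA-Seq libraries. The Cebpa FF library came from *Cebpa* fl/fl mice, which carry floxed alleles of *Cebpa*, a transcription factor of alveolar type 2 (AT2) cells, and are named without a Cre. The Cebpa KO library came from Sftpc-CreER+ *Cebpa* fl/fl mice, in which tamoxifen activates a Cre driven by the promoter of *Sftpc*, an AT2 gene. Tamoxifen was given at 75 mg/kg in 5 daily injections, with a later weekly round for late time points, and the lungs of both groups were taken 26 weeks after the first injection. The mice were 3 months old unless stated otherwise and of mixed background, and each library came from 3 of them. Barcodes carry no mark of the mouse, which leaves 1 sample per genotype. Differences between genotypes therefore have no replicate check and no test, and every interval below is a 95% interval for counting error only.

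BMPs and TGF-βs are secreted dimers that bind a type II receptor, which then activates a type I receptor. BMPR2 is a type II receptor for BMPs and is known for its role in pulmonary arterial hypertension, TGFBR2 is the type II and TGFBR1 the type I receptor for TGF-β. Activated receptors of the BMP branch phosphorylate SMAD1, SMAD5 and SMAD9, those of the TGF-β branch phosphorylate SMAD2 and SMAD3, and both sets enter the nucleus with SMAD4. *Id1*, an inhibitor of basic helix-loop-helix transcription factors, is a direct target of the BMP branch and is widely used as its readout. TGF-β is secreted in a latent form, is activated by integrins and other proteins, and is a main driver of matrix production in lung fibrosis.

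After cells with fewer than 200 genes or more than 20% mitochondrial counts were left out, 11487 Cebpa FF and 13238 Cebpa KO cells remained, with medians of 4835 and 2607 UMIs. A cell was assigned to a type when the raw UMIs of that type's marker genes outnumbered those of other types, as described under the processing of the data, and none of the 10 genes was a marker. In all, 8548 Cebpa FF and 6911 Cebpa KO cells were gated, and 16 types had at least 20 cells in both libraries. The Cebpa KO library held 1949 cells of the leukocyte lineage and the Cebpa FF library 129, so 9 further types, mostly leukocytes, could be described in Cebpa KO only. Leukocyte RNA was also present outside leukocytes: across the 14 other types compared, *Ptprc*, the gene of the leukocyte antigen CD45, was at up to 3.75 CPM in Cebpa FF and up to 66.3 CPM in Cebpa KO. *Ptprc* is in the leukocyte lineage gate, which limits how much of it a cell gated to another type can hold. *Chil3*, an alveolar macrophage marker left out of the gate, was at up to 2.46 CPM in Cebpa FF and up to 286 CPM in Cebpa KO across these 14 types. CPM here means the UMIs of a gene per 1000000 UMIs of the gated cells of a type. In such sums, fewer expressing cells and less RNA per cell cannot be told apart. The libraries shared 45 barcodes. *Cebpa* itself was at 158 CPM in AT2 cells of Cebpa FF (1262 UMIs in 393 cells) and at 115 CPM in those of Cebpa KO (126 UMIs in 69 cells), a log2 ratio of -0.46 (-0.73 to -0.19). Whether the counted 3′ ends lie in the deleted part is not given in the sources used here. The AT2 gate counts *Abca3* among its markers, and the study reports less staining of its protein in lineage-traced cells after *Cebpa* deletion. Cells that lost the AT2 markers would be missed, so the AT2 values of Cebpa KO describe cells that kept them.

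The cells gated as alveolar type 1 (AT1), the thin cells of gas exchange, were not alike in the libraries. There were 63 in Cebpa FF and 21 in Cebpa KO. In both, cells with at least 10000 UMIs held most of the UMIs: 18 cells held 64.7% in Cebpa FF and 5 cells 69.4% in Cebpa KO. *Ager*, the leading AT1 marker, was at 20379 CPM in Cebpa FF and 3836 CPM in Cebpa KO, and *Hopx*, an AT1 marker left out of the gate because other lineages also held it, was at 6858 and 945 CPM. Keratin genes, which are in the epithelial lineage gate, went the other way, with *Krt8* at 586 and 2524 CPM and *Krt18* at 485 and 2856 CPM. *Sprr1a*, a gene of cornified epithelium, had 0 UMIs in Cebpa FF and 198 in Cebpa KO. Counts of pairs past 2-fold that include AT1-gated cells are therefore also given without them.

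**Figure D1:**
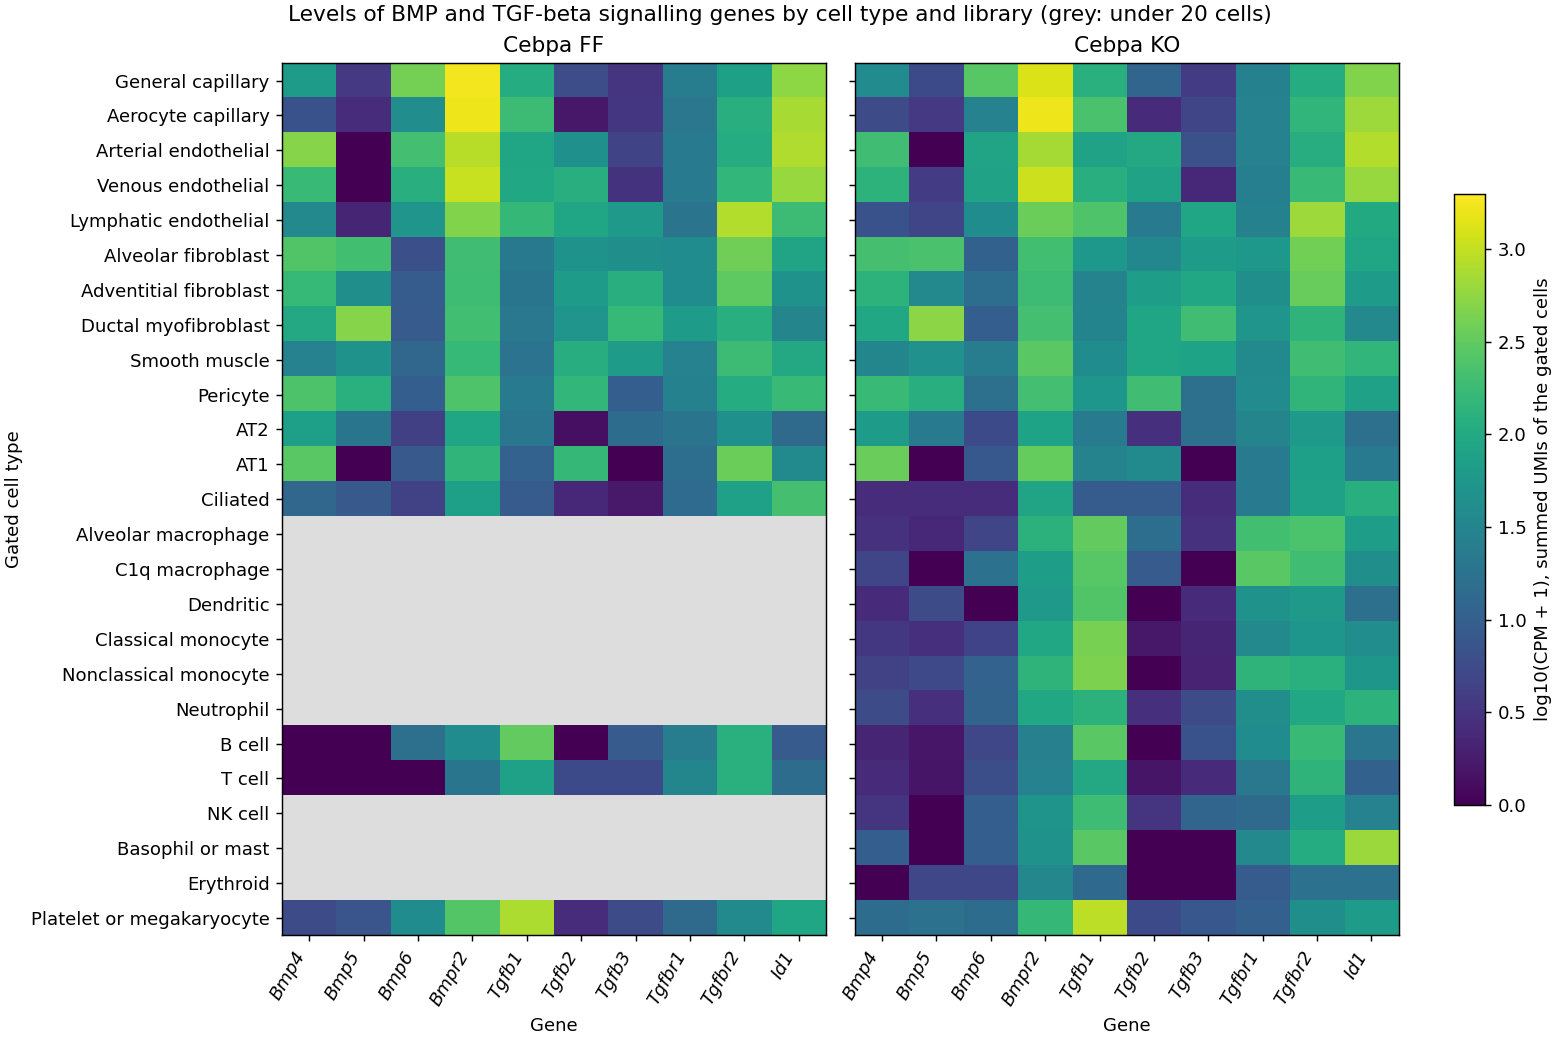
Levels of the 10 genes, as log10 of CPM plus 1, in each gated cell type (rows) of the Cebpa FF (left) and Cebpa KO (right) library; grey marks types with under 20 cells. *Bmpr2* is brightest in the capillary rows, *Bmp5* and *Tgfb3* in ductal myofibroblasts, *Bmp6* in general capillary cells and *Tgfb1* in platelets or megakaryocytes, in both libraries.

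The highest of the 16 types was the same in both libraries for 6 of the 10 genes: *Bmp5* and *Tgfb3* in ductal myofibroblasts, *Bmp6* in general capillary cells, *Tgfb1* in platelets or megakaryocytes, *Tgfbr2* in lymphatic endothelium and *Id1* in arterial endothelium. For *Bmp4*, *Bmpr2*, *Tgfb2* and *Tgfbr1* it differed. None of the 10 genes overlaps another counted gene on its own strand in the GENCODE annotation of GRCm38.

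The 3 BMP ligands were highest in different types, with overlaps. *Bmp4* (chr14:46383520-46390669, minus strand) came from many structural cells, *Bmp5* (chr9:75775364-75900310, plus strand) from mesenchyme and *Bmp6* (chr13:38345107-38500302, plus strand) from endothelium. *Bmp4*, a ligand of the distal buds of the embryonic lung, was highest in arterial endothelium of Cebpa FF, at 506 CPM (424 to 599, 135 UMIs in 66 cells). AT1-gated cells followed at 288 CPM (238 to 345), 1.76-fold lower (1.36 to 2.27). Alveolar fibroblasts were at 251 CPM, pericytes at 239 CPM, venous endothelium at 171 CPM and adventitial fibroblasts at 161 CPM. The intervals of alveolar fibroblasts (230 to 274) and pericytes (204 to 278) overlapped, as did those of venous endothelium (150 to 193) and adventitial fibroblasts (149 to 174).

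In Cebpa KO, the AT1-gated cells had the highest *Bmp4* level, 353 CPM, but 29 of their 49 UMIs came from 1 cell. Alveolar fibroblasts came next at 209 CPM (177 to 244) and arterial endothelium at 191 CPM (133 to 268), with overlapping intervals. *Bmp4* separated the capillary types of the alveolus. General capillary cells, the capillary stem and progenitor cells, were at 63.4 and 38.3 CPM in Cebpa FF and Cebpa KO, and aerocytes, the capillary cells specialised for gas exchange, at 5.78 and 4.93 CPM. General capillary cells, the most numerous type, held 32.9% and 40.6% of the *Bmp4* UMIs of gated cells. The difference from aerocytes was 10.97-fold (8.34 to 14.7) in Cebpa FF and 7.77-fold (5.68 to 10.9) in Cebpa KO. B and T cells, given for comparison, had 0 UMIs of *Bmp4* in Cebpa FF and 2 and 3 UMIs in Cebpa KO.

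*Bmp5* was at 507 CPM (464 to 553) in ductal myofibroblasts of Cebpa FF and at 530.4 CPM (472 to 594) in those of Cebpa KO. These cells, which lie around the alveolar ducts, made up 2.11% and 1.56% of gated cells and held 35.3% and 41.6% of the *Bmp5* UMIs of all gated cells. Alveolar fibroblasts were 2.55-fold lower (2.23 to 2.91) in Cebpa FF and 2.36-fold lower (1.95 to 2.87) in Cebpa KO. Pericytes, the mural cells of capillaries, had 122 and 115 CPM. In adventitial fibroblasts the level was 43.3 and 35.1 CPM, which was 11.7-fold (9.88 to 13.9) and 15.1-fold (11.5 to 20.02) below ductal myofibroblasts. Arterial endothelium and AT1-gated cells had 0 UMIs of *Bmp5* in both libraries, where 3 counts would correspond to 11.2 and 16.9 CPM in arterial endothelium and to 7.39 and 21.6 CPM in AT1-gated cells.

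*Bmp6*, known as the endothelial signal by which iron raises hepcidin in the liver, was an endothelial gene in the lung libraries too. General capillary cells had 408 CPM (399 to 416) in Cebpa FF and 275 CPM (267 to 284) in Cebpa KO. They held 91.5% and 89.7% of the *Bmp6* UMIs of gated cells, against 50.3% and 37.3% of the cells. Arterial endothelium was at 206 and 84.5 CPM and venous endothelium at 119 and 78.8 CPM. Aerocytes were 10.1-fold (9.13 to 11.3) and 9.85-fold (8.64 to 11.3) lower than general capillary cells. In alveolar fibroblasts there were 5.39 and 9.48 CPM, and in AT2 cells 3.25 and 4.55 CPM.

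Shares of cells gave the same picture of *Bmp6*. At least 1 UMI was found in 73.9% of general capillary cells of Cebpa FF (median 4413 UMIs) and in 63.2% of those of Cebpa KO (median 5214 UMIs). When each cell was thinned to 1000 UMIs, the shares were 32.7% and 21.8%. Among B cells, which should lack the gene, 10.0% and 2.57% had a UMI (medians 5750 and 5676 UMIs), and 5% and 0% after thinning.

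**Figure D2:**
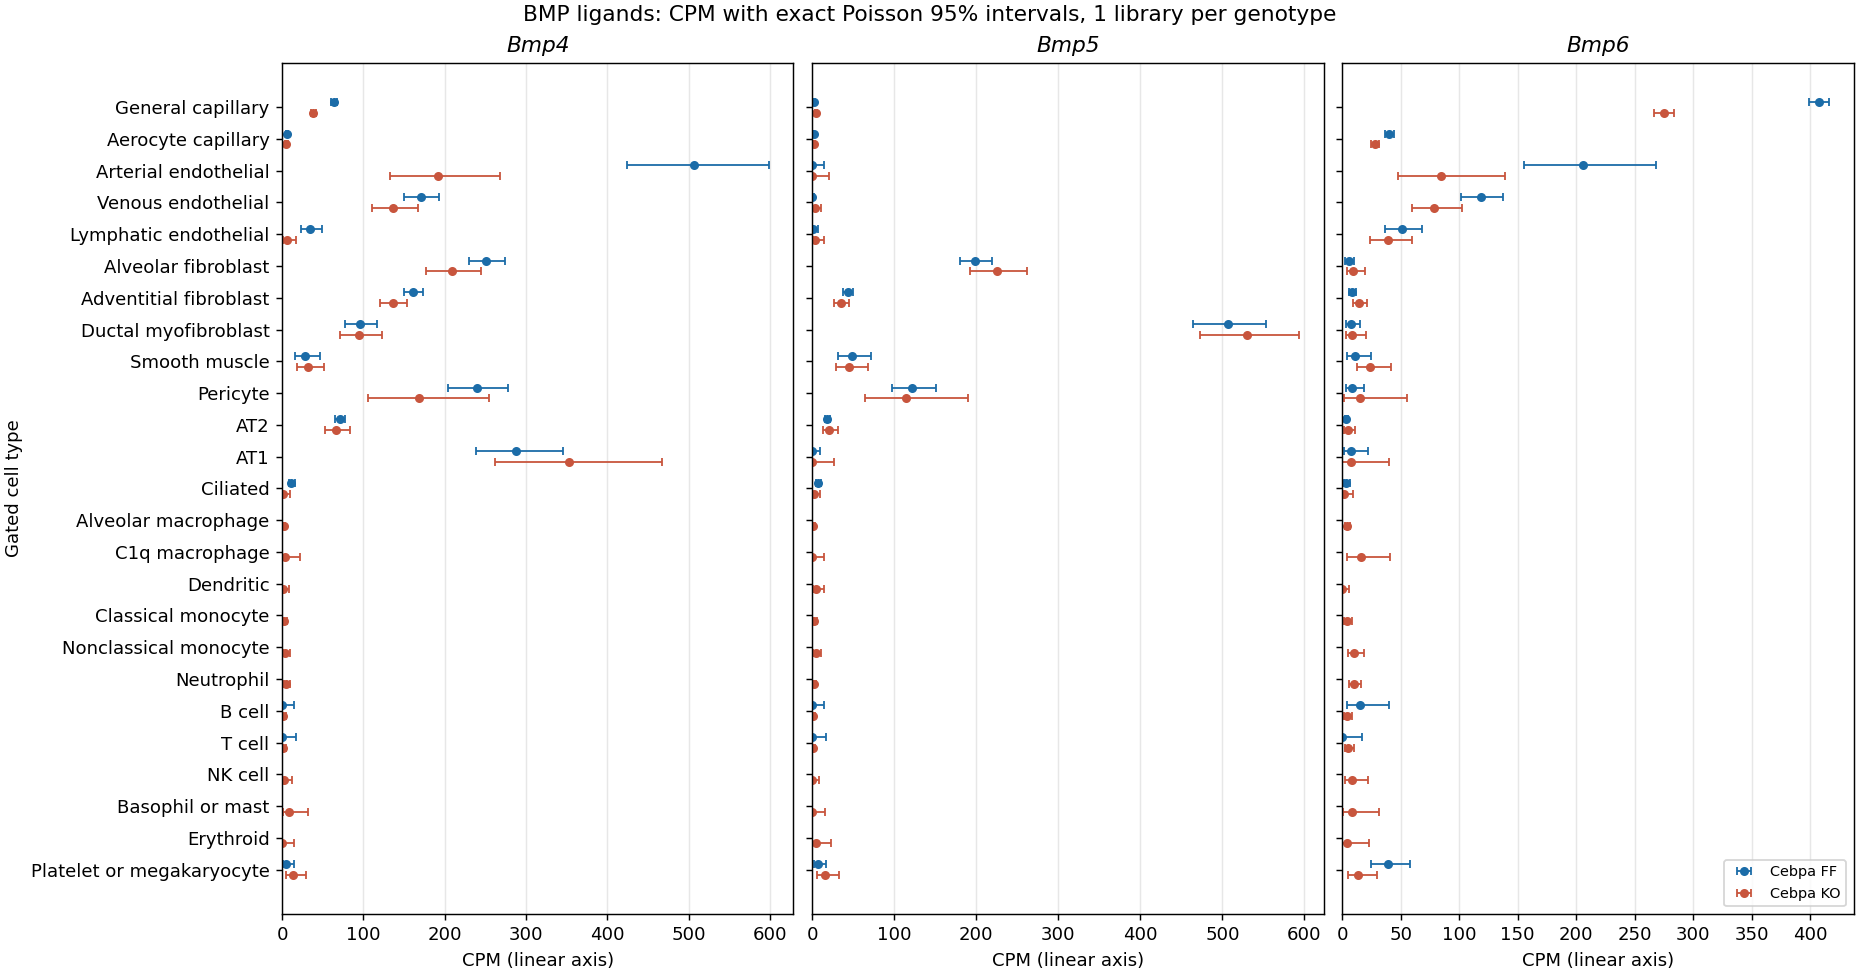
CPM of *Bmp4*, *Bmp5* and *Bmp6* (linear x axes) in each gated type (y axis) of the Cebpa FF and Cebpa KO library; points are summed UMIs and bars exact Poisson 95% intervals. *Bmp4* is spread over arterial, AT1-gated, fibroblast and pericyte rows, *Bmp5* peaks in ductal myofibroblasts at 507 and 530.4 CPM, and *Bmp6* in general capillary cells at 408 and 275 CPM.

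The TGF-β ligands also had their highest levels in different types: blood cells for *Tgfb1*, mural, venous and, in Cebpa FF, AT1-gated cells for *Tgfb2*, and ductal myofibroblasts for *Tgfb3*. *Tgfb1* (chr7:25687002-25705077, plus strand), the isoform best known in fibrosis and immune regulation, was at 785 CPM (717 to 859) in platelets or megakaryocytes of Cebpa FF and 924 CPM (836 to 1019) in those of Cebpa KO. B cells followed among the types compared, with 325 CPM (84 UMIs) and 288 CPM (490 UMIs), and platelets exceeded them 2.42-fold (1.91 to 3.09) in Cebpa FF. Aerocytes were at 184 and 227 CPM and general capillary cells at 110.2 and 124 CPM, a ratio between these types of 0.60 (0.56 to 0.64) in Cebpa FF and 0.55 (0.51 to 0.58) in Cebpa KO. Lymphatic endothelium had 155 and 242 CPM, and fibroblasts of all 3 kinds were at or under 20.6 CPM in Cebpa FF.

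Myeloid types, with at least 20 cells in Cebpa KO only, were rich in *Tgfb1*. Nonclassical monocytes had 446 CPM, classical monocytes 415 CPM, alveolar macrophages 317 CPM, basophils or mast cells 282 CPM, C1q macrophages 274 CPM and dendritic cells 255 CPM. Neutrophils were lower, at 131 CPM (115 to 150). By share of UMIs the order was another one, since capillary cells were many. General capillary cells and aerocytes held 43.1% and 31.8% of the *Tgfb1* UMIs of gated cells in Cebpa FF and 22.95% and 23.8% in Cebpa KO, against 9.10% and 4.97% in platelets or megakaryocytes. Alveolar macrophages, 3.91% of gated cells, held 14.2% of the *Tgfb1* UMIs of gated Cebpa KO cells. These shares cannot be compared between the libraries, since the leukocyte numbers differed.

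*Tgfb2* (chr1:186622792-186705989, minus strand), the isoform that lacks the integrin-binding motif of the other two, was highest in AT1-gated cells (158 CPM, 64 UMIs) and pericytes (153 CPM, 107 UMIs) of Cebpa FF, which differed 1.03-fold (0.74 to 1.41). Venous endothelium was at 117 CPM and smooth muscle at 113 CPM. AT2 cells had 3 UMIs in 8004724, or 0.38 CPM. The ratio of AT1-gated to AT2 cells was 421-fold (138 to 2093), although it rests on those 3 UMIs. Adventitial fibroblasts, at 64.0 and 68.1 CPM, held 26.3% of the *Tgfb2* UMIs of gated cells in Cebpa FF and 21.0% in Cebpa KO. General capillary cells, far more numerous, held 10.1% and 26.7%, the largest share in Cebpa KO. In Cebpa KO, pericytes were highest at 191 CPM (124 to 282) with 25 UMIs in 24 cells, and arterial endothelium, venous endothelium, smooth muscle and ductal myofibroblasts lay between 78.8 and 95.7 CPM.

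*Tgfb3* (chr12:86056745-86079041, minus strand), the isoform needed for palate fusion, was at 161 CPM (137 to 188) in ductal myofibroblasts of Cebpa FF and 192 CPM (158 to 231) in those of Cebpa KO. Adventitial fibroblasts had 121 and 90.5 CPM, 1.33-fold (1.11 to 1.59) and 2.12-fold (1.65 to 2.71) less, and held 49.0% and 30.8% of the UMIs of gated cells. Alveolar fibroblasts had 43.6 and 65.0 CPM, and pericytes, neighbours in the same lineage, 8.60 and 15.3 CPM. Lymphatic endothelium was the endothelial exception: its level of 59.1 and 87.2 CPM was 26.2-fold (17.2 to 39.8) and 30.5-fold (19.6 to 47.4) above general capillary cells. AT1-gated cells had 0 UMIs of *Tgfb3* in both libraries.

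**Figure D3:**
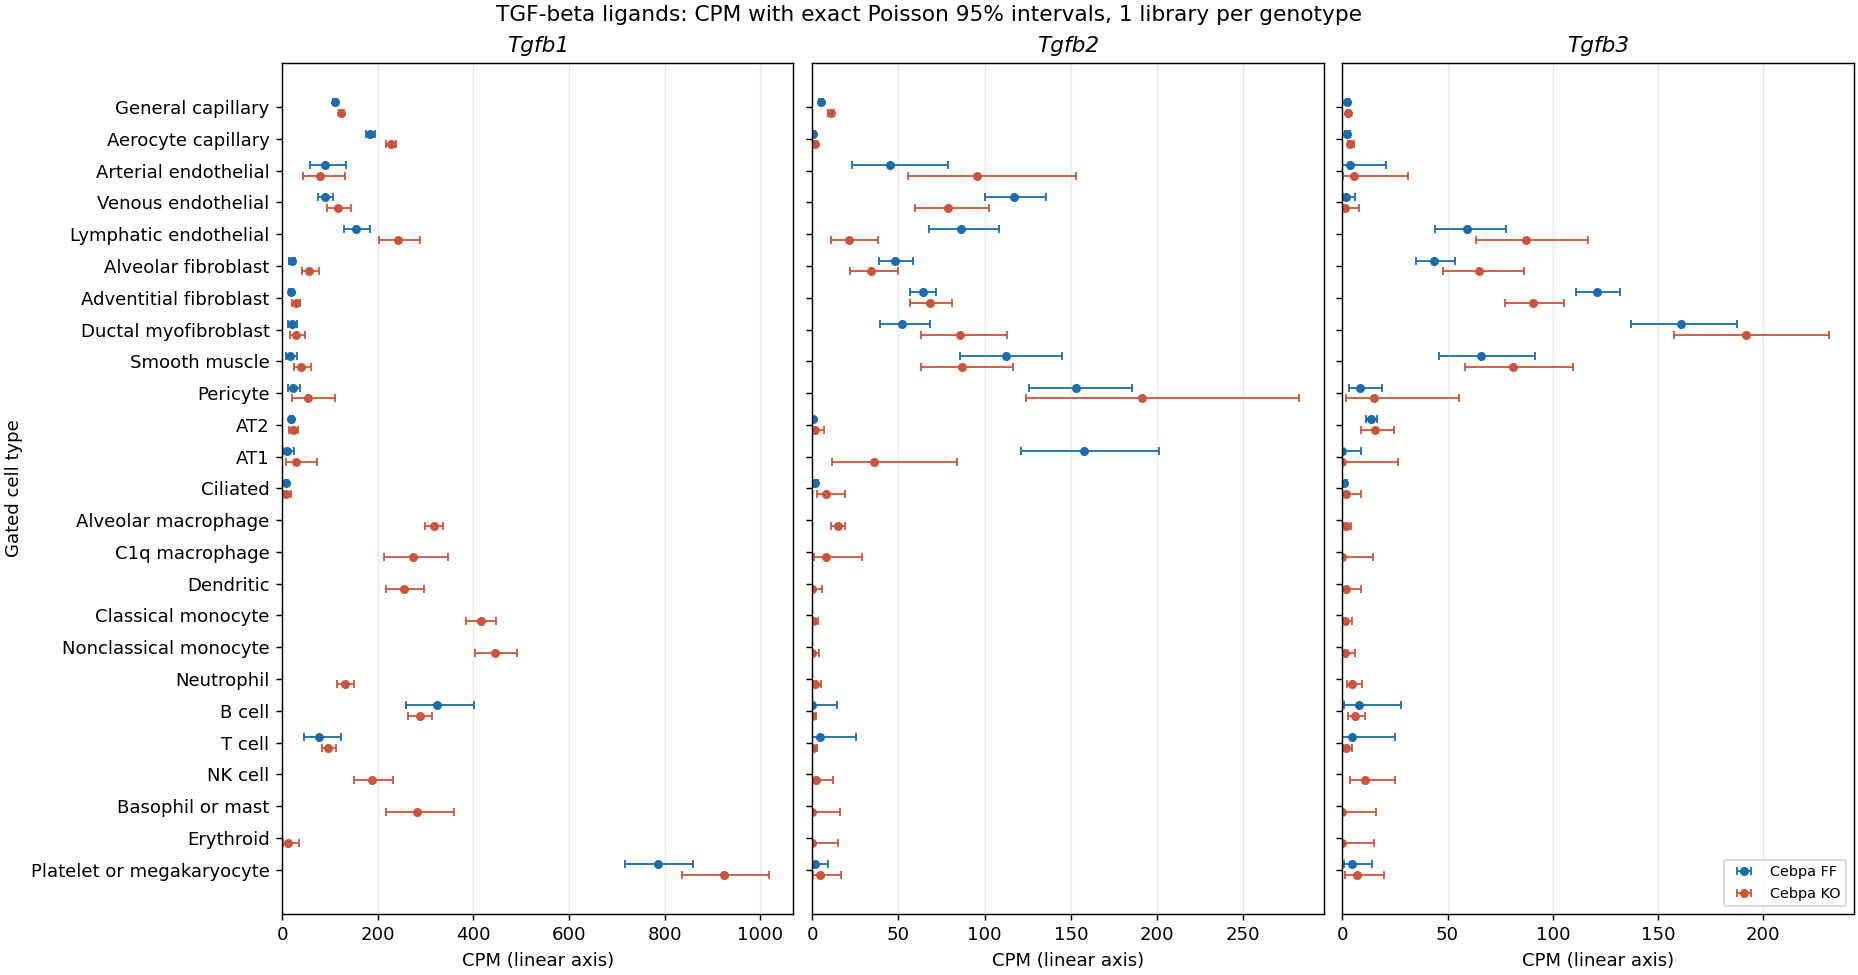
CPM of *Tgfb1*, *Tgfb2* and *Tgfb3* (linear x axes) in each gated type (y axis) of the Cebpa FF and Cebpa KO library, with exact Poisson 95% intervals as bars. *Tgfb1* reaches 785 and 924 CPM in platelets or megakaryocytes, *Tgfb2* differs most between the libraries in AT1-gated cells (158 and 36.1 CPM) and lymphatic endothelium (86.3 and 21.3 CPM), and *Tgfb3* peaks in ductal myofibroblasts.

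The receptors were highest in different types: *Bmpr2* in capillary endothelium, *Tgfbr2* in lymphatic endothelium and *Tgfbr1*, in Cebpa KO, in macrophages. *Bmpr2* (chr1:59763400-59879014, plus strand) was at 1759.6 CPM in general capillary cells and 1643 CPM in aerocytes of Cebpa FF, a 1.07-fold difference (1.05 to 1.09). In Cebpa KO the order was turned, with 1351 CPM in general capillary cells and 1620.2 CPM in aerocytes, a ratio of 0.83 (0.82 to 0.85). Venous endothelium had 1045 and 1112 CPM, arterial endothelium 877 and 715 CPM and lymphatic endothelium 474 and 364 CPM. Fibroblasts, smooth muscle and pericytes lay between 160 and 284 CPM in both libraries. *Bmpr2* was between 72.8 and 85.1 CPM in AT2 and ciliated cells and at 38.7 and 26.4 CPM in B cells. After thinning to 1000 UMIs, 77.4% and 68.5% of general capillary cells and 78.3% and 75.5% of aerocytes had a *Bmpr2* UMI, against 0% and 6.27% of B cells. Before thinning, these shares were 97.1% and 94.5%, 98.8% and 93.0%, and 22.5% and 14.3%.

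*Tgfbr2* (chr9:116084293-116175360, minus strand) had its highest level in lymphatic endothelium, with 827 CPM (766 to 890) in Cebpa FF and 655 CPM (587 to 728) in Cebpa KO. That was 11.1-fold (10.2 to 12.2) and 6.06-fold (5.37 to 6.81) above general capillary cells. Alveolar fibroblasts followed with 387 and 394 CPM and adventitial fibroblasts with 298 and 343 CPM, whereas ductal myofibroblasts, which had most *Bmp5* and *Tgfb3*, were at 115 and 138 CPM. AT1-gated cells of Cebpa FF had 360 CPM (304 to 423), 8.22-fold (6.73 to 10.0) above AT2 cells. In the alveolar macrophages of Cebpa KO the level was 234 CPM.

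*Tgfbr1* (chr4:47353222-47414931, plus strand) was low across structural cells. Ductal myofibroblasts had 63.2 CPM (48.6 to 80.6) in Cebpa FF and 52.3 CPM (35.3 to 74.7) in Cebpa KO, and capillary, arterial and venous endothelium lay between 19.1 and 28.2 CPM. C1q macrophages, alveolar macrophages and nonclassical monocytes of Cebpa KO stood above all of these, with 282 CPM (220 to 355), 196 CPM (182 to 211) and 138 CPM (115 to 164). Classical monocytes had 35.0 CPM (26.5 to 45.3), so the monocyte types, close in *Tgfb1*, were apart in *Tgfbr1*. Alveolar macrophages held 33.9% of the *Tgfbr1* UMIs of gated Cebpa KO cells. In Cebpa FF, the 9 C1q macrophages held 15 *Tgfbr1* UMIs in 44118 and the 10 nonclassical monocytes 12 in 66243. In these types *Tgfbr1* was therefore not particular to Cebpa KO.

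*Id1* (chr2:152736251-152737410, plus strand) was highest in blood endothelium among the 16 types compared. Arterial endothelium had 802 CPM (698 to 917) in Cebpa FF and 828 CPM (699 to 973) in Cebpa KO, aerocytes 734 and 657 CPM, venous endothelium 609 and 625 CPM and general capillary cells 549 and 476 CPM. Arterial cells and aerocytes did not differ beyond counting error in Cebpa FF (1.09-fold, 0.95 to 1.25) and differed 1.26-fold (1.06 to 1.48) in Cebpa KO. General capillary cells were below aerocytes in both, at a ratio of 0.75 (0.72 to 0.77) and 0.73 (0.70 to 0.75). Lymphatic endothelium was far lower, at 183 and 101 CPM. In the epithelium, ciliated cells stood apart with 208 CPM (192 to 226) and 116 CPM (90.3 to 146), while AT2 cells had 12.99 and 15.5 CPM, a 16.04-fold (13.01 to 19.9) and 7.47-fold (4.35 to 13.5) difference. Among the cells that made most *Bmp5*, ductal myofibroblasts, *Id1* was at 30.6 and 34.9 CPM.

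**Figure D4:**
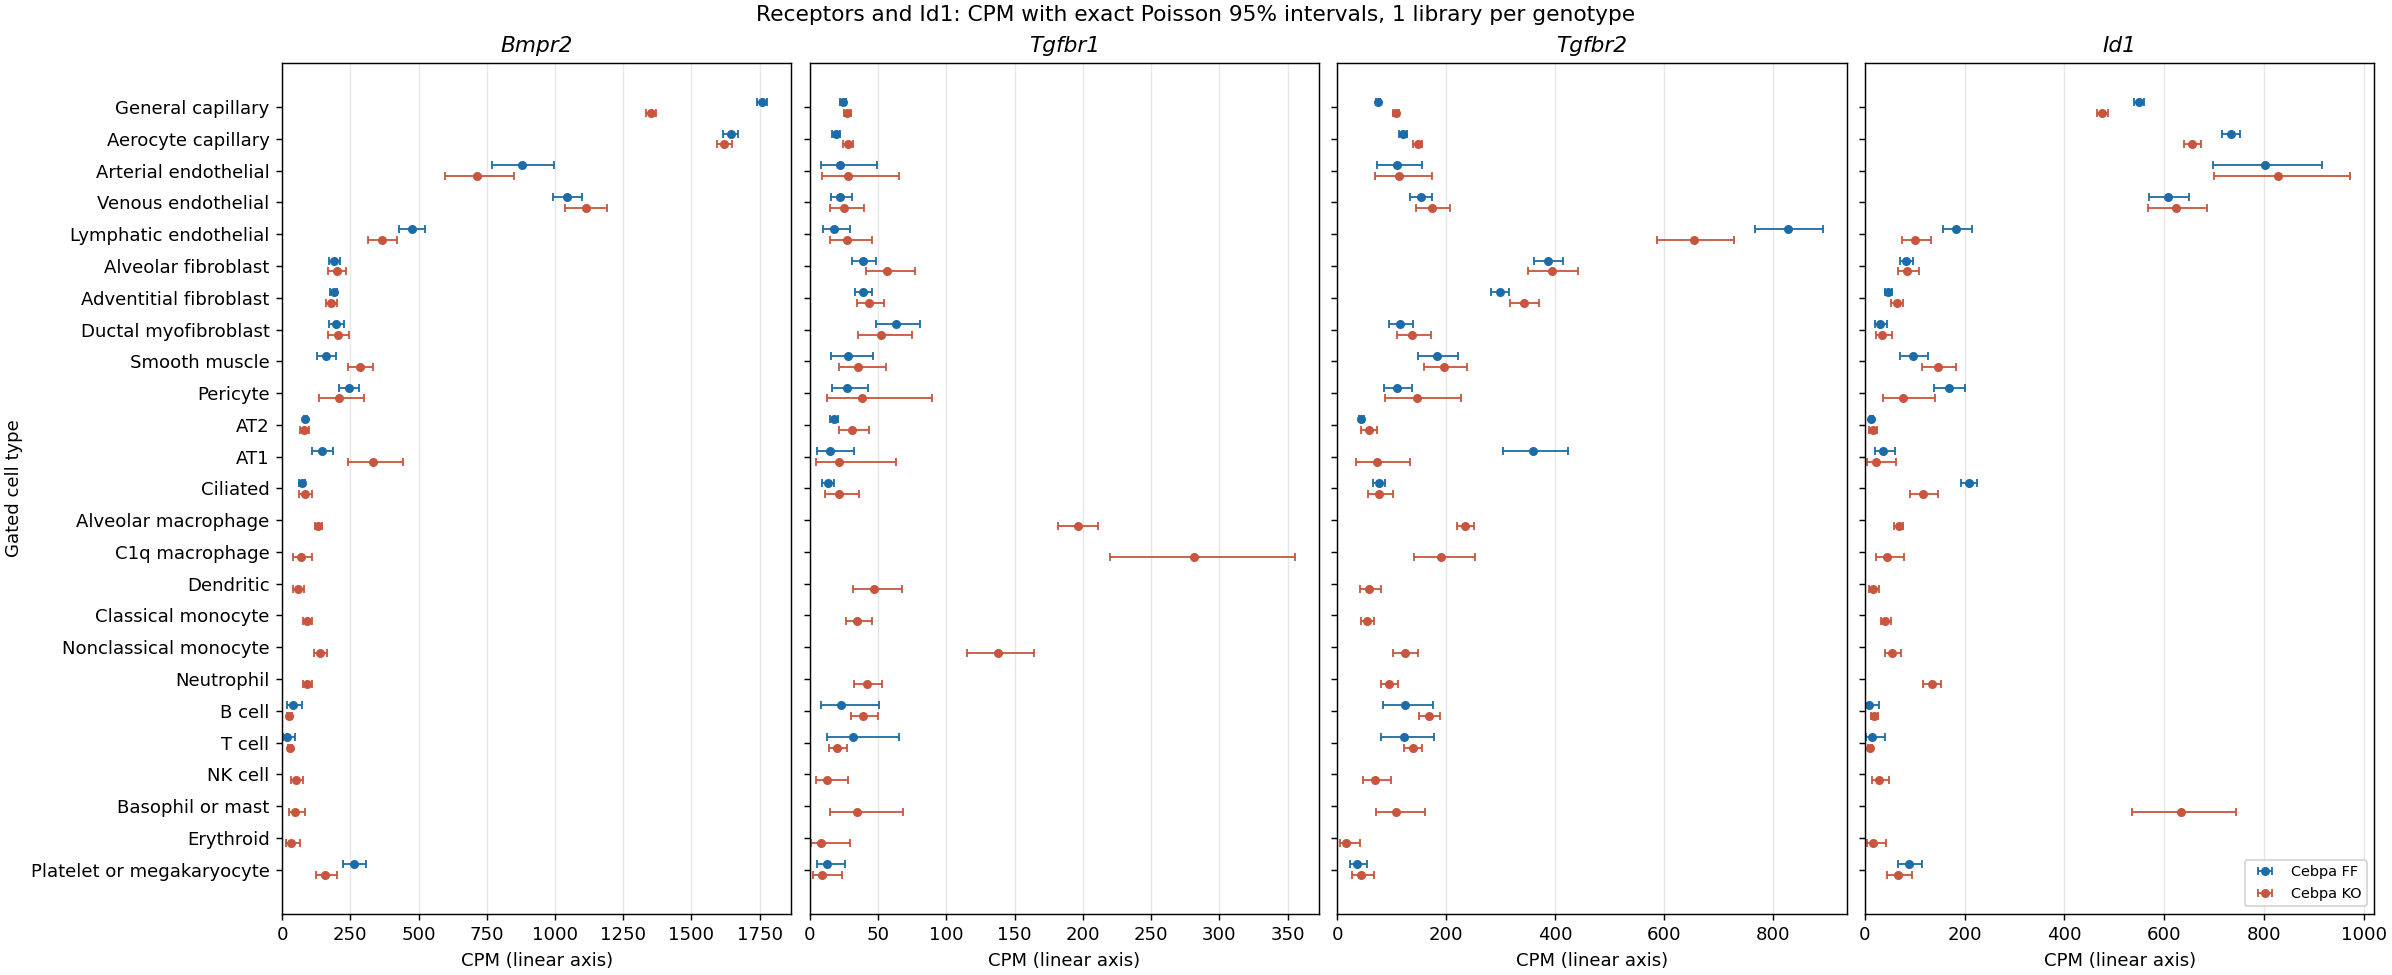
CPM of *Bmpr2*, *Tgfbr1*, *Tgfbr2* and *Id1* (linear x axes with a range of their own) in each gated type (y axis) of the Cebpa FF and Cebpa KO library, with exact Poisson 95% intervals as bars. *Bmpr2* and *Id1* are high in capillary, arterial and venous endothelium, *Tgfbr2* in lymphatic endothelium (827 and 655 CPM) and *Tgfbr1* in C1q and alveolar macrophages of Cebpa KO (282 and 196 CPM).

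Other BMP targets were compared with *Id1*. *Id3*, the closest relative of *Id1* on the list, was also highest in arterial endothelium, with 1349.5 and 1424 CPM, but was at 587 and 565 CPM in alveolar fibroblasts, where *Id1* had 83.3 and 85.4 CPM. *Smad6*, which encodes an inhibitory SMAD that limits the BMP branch, was at 476 and 367 CPM in aerocytes, 382 and 270.3 CPM in arterial endothelium, 345 and 189 CPM in general capillary cells and 9.80 and 20.3 CPM in alveolar fibroblasts. Across the 16 types of both libraries, *Smad6* was the second most alike gene to *Id1*, and with a pseudocount of 1 in place of 10 it was no longer among the 3 most alike. Of the 69 genes on the lists and among the members, 46 had promoter windows in RefSeq (GRCm38.p6), while *Id1* and *Tgfb3* had none and were not searched. The 46 genes had 60 windows of 300 bases, from 250 before to 50 after the start. Each was searched for GTCTAGAC, a palindrome of 2 SMAD-binding boxes that reads the same on both strands. It was in 1 of these windows, that of *Smad6*, and in 70 of all 32851 windows (0.213%). The stretch that holds it, chr9:64022045-64022074 on the minus strand, is shown because it is the sequence on the lists with this match, and capitals mark the palindrome, whose first base lies 4 bases before the start.
Smad6: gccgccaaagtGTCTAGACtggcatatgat
The match is a description of these letters, not a site.

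For the comparison of genotypes, ratios were taken as log2 of Cebpa KO over Cebpa FF in the 16 types, for pairs of gene and type with at least 50 UMIs over both libraries. Of 160 pairs of the 10 genes, 101 passed, and 92 of them lay within 2-fold. Past 2-fold, 3 pairs were higher in Cebpa KO (2.97%, against 2.65% of the 95043 pairs of all genes) and 6 were lower (5.94%, against 1.85%). The median log2 ratio was 0.09 over the 101 pairs and 0.01 over all genes. Of the 101 pairs, 60 lay above 0 and 41 below, against 48264 and 46779 of the pairs of all genes. Without the AT1-gated cells, 2 of 97 pairs were higher (2.06%, against 2.42% of all pairs) and 4 lower (4.12%, against 1.47%).

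**Figure D5:**
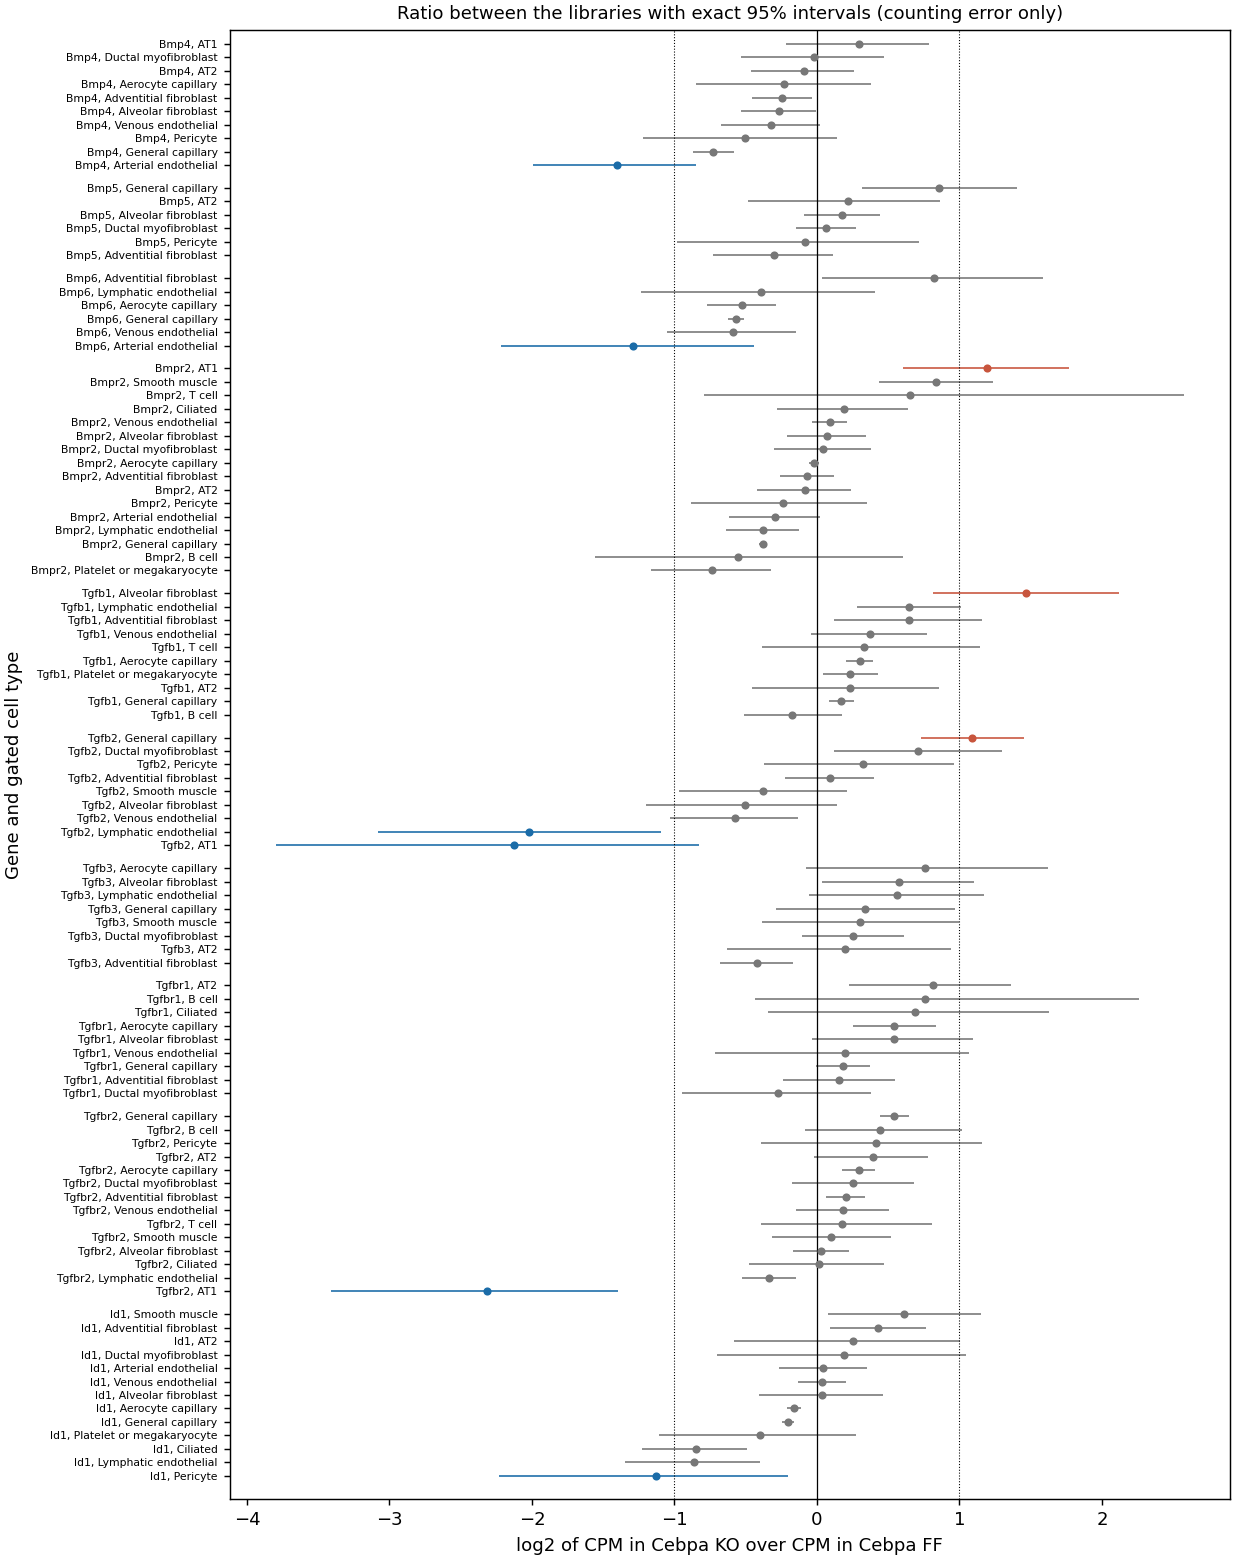
Log2 ratio of CPM in Cebpa KO over Cebpa FF (x axis) for the 101 pairs of gene and type with at least 50 UMIs (y axis), with exact 95% intervals as bars; dotted lines mark 2-fold, red points lie above it and blue points below. The points of *Bmp4* and *Bmp6* lie below 0 in every endothelial type shown, some with bars that cross 0, and *Tgfb2* has points past 2-fold on both sides. *Bmp4* had too few UMIs in lymphatic endothelium to be shown.

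*Bmp4* was lower in Cebpa KO in 9 of the 10 types with enough UMIs, with a median log2 ratio of -0.25. In arterial endothelium it went from 506 to 191 CPM, a log2 ratio of -1.40 (-1.99 to -0.85), in a type where 2.64% of genes were lower past 2-fold. In general capillary cells, the most deeply sampled type, the ratio was -0.73 (-0.87 to -0.59), with 1318 and 575 UMIs. Alveolar and adventitial fibroblasts had -0.27 (-0.54 to -0.00) and -0.24 (-0.45 to -0.03), and without the deepest 5% of cells both intervals included 0. In aerocytes, venous endothelium, ductal myofibroblasts, pericytes and AT2 cells the interval included 0 with all cells. The ratio of 0.29 in AT1-gated cells became -0.70 (-1.47 to 0.01) without the cell that held most of their UMIs in each library.

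*Bmp6* was lower in all 5 endothelial types. In arterial endothelium it went from 206 CPM (55 UMIs) to 84.5 CPM (15 UMIs), a log2 ratio of -1.29 (-2.22 to -0.44). The ratios were -0.57 (-0.62 to -0.51) in general capillary cells, -0.53 (-0.77 to -0.29) in aerocytes, -0.59 (-1.05 to -0.15) in venous and -0.39 (-1.24 to 0.40) in lymphatic endothelium. The exception was a low level in adventitial fibroblasts, 8.15 and 14.4 CPM. *Bmp5* had no pair past 2-fold, and its ratio in ductal myofibroblasts was 0.06 (-0.14 to 0.27).

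*Tgfb1* was higher in Cebpa KO in 9 of 10 types, by small amounts in its main sources: 0.23 (0.04 to 0.43) in platelets or megakaryocytes, 0.30 (0.21 to 0.40) in aerocytes and 0.17 (0.08 to 0.26) in general capillary cells. The interval in platelets or megakaryocytes included 0 under the stricter cell filter (-0.04 to 0.39), and that in general capillary cells with free RNA subtracted (-0.01 to 0.18). B cells had -0.18 (-0.51 to 0.18), and the intervals of venous endothelium, AT2 cells and T cells also included 0. The pair past 2-fold was alveolar fibroblasts, from 20.6 to 56.9 CPM, a log2 ratio of 1.47 (0.82 to 2.12), where 1.16% of genes were higher past 2-fold. In the same fibroblasts, *Ptprc* went from 0.49 CPM (1 UMI) to 23.0 CPM (17 UMIs). In adventitial fibroblasts *Ptprc* went from 0.93 to 30.9 CPM, with a *Tgfb1* ratio of 0.64 (0.12 to 1.16). With free RNA subtracted, the *Tgfb1* ratio in alveolar fibroblasts was 1.53 (0.83 to 2.23), and with cells of at least 3000 UMIs only it was 0.98 (0.23 to 1.70). That subtraction was scaled to surfactant genes in fibroblasts, not to leukocyte genes. The part of leukocyte RNA in the result was not tested.

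*Tgfb2* had 3 of the 9 pairs past 2-fold, in both directions. Lymphatic endothelium went from 86.3 CPM (73 UMIs) to 21.3 CPM (11 UMIs), a log2 ratio of -2.02 (-3.08 to -1.10), where 1.72% of genes were lower past 2-fold. AT1-gated cells went from 158 CPM (64 UMIs) to 36.1 CPM (5 UMIs), a ratio of -2.13 (-3.80 to -0.83), where 20.3% of genes were lower past 2-fold. In general capillary cells the gene was rare and the ratio was 1.09 (0.73 to 1.46), from 5.10 to 10.9 CPM, where 4.44% of genes were higher past 2-fold. There, 1.88% and 3.45% of cells had a *Tgfb2* UMI, and 0.259% and 0.633% after thinning. Lymphatic cells of Cebpa KO were shallower, with a median of 2001 UMIs against 5445 in Cebpa FF, and with cells of at least 3000 UMIs only, the lymphatic ratio was -1.66 (-2.73 to -0.74). *Tgfb3* had no pair past 2-fold.

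Of the receptors, *Bmpr2* was lower in general capillary cells, at -0.38 (-0.41 to -0.36), and in aerocytes the ratio was -0.02 (-0.05 to 0.01). It was also lower in platelets or megakaryocytes, at -0.74 (-1.16 to -0.32), and in lymphatic endothelium, at -0.38 (-0.64 to -0.13). The lymphatic ratio ranged from -0.64 to 0.06 across the alternative settings. Of 16 types, the *Bmpr2* ratio lay above 0 in 7 and below in 9. Its pair past 2-fold was in AT1-gated cells, from 145 CPM (59 UMIs) to 332 CPM (46 UMIs), a ratio of 1.19 (0.60 to 1.77), in the type where 14.1% of genes were higher past 2-fold. In those cells *Cldn5*, an endothelial tight junction gene, was at 41.9 CPM in Cebpa FF and 108 CPM in Cebpa KO. *Cldn5* was also higher in alveolar fibroblasts (50.5 and 127 CPM), where the *Bmpr2* ratio was 0.07 (-0.21 to 0.35). In smooth muscle *Cldn5* was at 60.1 and 268 CPM, with a *Bmpr2* ratio of 0.83 (0.44 to 1.24). Across the alternative settings given below, the *Bmpr2* ratio in AT1-gated cells ranged from 0.32 to 1.39. These include a subtraction of free RNA, scaled in epithelial types to endothelial genes. The part of endothelial RNA in the result was not tested beyond this. *Tgfbr2* was higher in 12 of 14 types, with 0.54 (0.44 to 0.64) in general capillary cells. Its interval also lay above 0 in aerocytes and adventitial fibroblasts, and included 0 in the others of the 12. *Tgfbr2* was lower in lymphatic endothelium, at -0.34 (-0.53 to -0.15), or -0.14 (-0.34 to 0.07) with cells of at least 3000 UMIs only. It was also lower in AT1-gated cells, at -2.32 (-3.41 to -1.40), from 360 CPM (146 UMIs) to 72.1 CPM (10 UMIs). *Tgfbr1* was higher in 8 of 9 types, with 0.81 (0.23 to 1.36) in AT2 cells and 0.54 (0.26 to 0.83) in aerocytes, and the intervals of the other 6 included 0. As given above, *Tgfbr1* was highest in macrophages of Cebpa KO, which had few counterparts in Cebpa FF. *Ptprc* went from 1.20 to 33.2 CPM in aerocytes and from 0.25 to 8.20 CPM in AT2 cells. In ductal myofibroblasts, where the *Tgfbr1* ratio was -0.27 (-0.95 to 0.38), *Ptprc* went from 0.99 to 27.9 CPM. The part of leukocyte RNA in the *Tgfbr1* ratios was not tested.

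The *Id1* ratio was close to 0 in the vessels where it was most abundant: 0.05 (-0.27 to 0.35) in arterial and 0.04 (-0.13 to 0.20) in venous endothelium, -0.16 (-0.21 to -0.11) in aerocytes and -0.20 (-0.25 to -0.16) in general capillary cells. It was lower in pericytes, from 168 CPM (117 UMIs) to 76.5 CPM (10 UMIs in 24 cells), a ratio of -1.13 (-2.23 to -0.20), where 5.09% of genes were lower past 2-fold. Ciliated cells had -0.85 (-1.23 to -0.49), but -0.00 (-0.26 to 0.25) with mixed cells kept. There, 25 of the 71 UMIs in Cebpa KO and 60 of the 604 in Cebpa FF came from 1 cell each, and the ratio was -1.30 (-1.77 to -0.86) without them. Lymphatic endothelium had -0.86 (-1.35 to -0.40), with -1.52 (-2.19 to -0.92) in cells of at least 3000 UMIs and -0.06 (-0.99 to 0.85) after thinning. In adventitial fibroblasts the ratio of 0.43 (0.09 to 0.76) became 0.14 (-0.24 to 0.51) without the cell with most *Id1* UMIs in each library, which held 28 of 119 UMIs in Cebpa KO. In smooth muscle, 0.61 (0.08 to 1.15) became 0.01 (-0.62 to 0.64) without the deepest 5% of cells. The ciliated cells of Cebpa KO were shallower (medians 4554 and 16590 UMIs), and the share of them with an *Id1* UMI was 22.9% against 51.1%, or 8.89% against 15.0% after thinning.

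Of the other genes of the pathway, 59 were counted in 7 lists and 54 had at least 1 pair with enough UMIs. Of their 393 pairs, 23 (5.85%) were higher and 19 (4.83%) lower past 2-fold, with a median log2 ratio of 0.03. Without the AT1-gated cells, 22 of 382 were higher (5.76%, against 2.42% of all pairs) and 12 lower (3.14%, against 1.47%). Of the TGF-β-induced targets, 8 of 60 pairs (13.3%) were higher and 3 lower, and of the other ligands 4 of 28 (14.3%) were higher and 2 lower. The list of other ligands also held *Bmp1*, a protease gene, whose pair in lymphatic endothelium was among the lower ones. Of the BMP-induced targets, 1 of 60 pairs was higher and 4 were lower. Extracellular inhibitors had 1 of 51 higher and 5 lower, the latency and activation list 6 of 66 higher and 2 lower, other receptors 2 of 76 in each direction, and the SMAD transducers 1 of 52 in each. Without the AT1-gated cells, the lower pairs were 2 of 59 for TGF-β-induced targets, 3 of 58 for BMP-induced targets, 3 of 48 for inhibitors, 0 of 62 for latency and activation and 1 of 75 for other receptors, and the higher pairs of latency and activation were 5. The other counts did not move. These lists were drawn up with earlier results of these data known, and all counts are read against the shares of all genes above.

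*Tgfbi*, a matrix protein induced by TGF-β, was at 3.56 and 11.7 CPM in general capillary cells, *Inhbb*, an activin subunit, at 2.55 and 12.1 CPM, *Bmp2* at 1.39 and 7.32 CPM and *Bmp3* at 1.11 and 2.26 CPM. All 4 were thus rare in both libraries and higher in Cebpa KO. In the same cells *Ptprc* went from 1.06 to 25.96 CPM and *Chil3* from 0.24 to 88.7 CPM. *Tgfbi* was high in C1q macrophages of Cebpa KO, as given under other observations. The part of leukocyte RNA in the ratios of these 4 genes was not tested.

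In lymphatic endothelium, *Smad6* was lower (102 and 48.4 CPM, log2 -1.07, -1.78 to -0.41), in the same direction as *Id1* there, and *Bmp1*, a protease that processes collagen and TGF-β-binding proteins, was at 62.7 and 29.1 CPM. In pericytes, *Bambi*, a pseudoreceptor that dampens TGF-β signalling, was lower (325 and 122 CPM, -1.41, -2.24 to -0.68), and *Ltbp4*, which anchors latent TGF-β in the matrix, was higher (148 and 321 CPM, 1.12, 0.57 to 1.65). Alveolar fibroblasts of Cebpa KO had more *Gdf10*, a relative of *Bmp3* (40.2 and 85.4 CPM), and more *Ltbp2*, a matrix protein of the latent TGF-β binding family (25.97 and 56.9 CPM). In AT1-gated cells, *Itgb6*, the β6 integrin chain of the epithelial activator of latent TGF-β, was at 495 and 209 CPM, and *Ccn2*, a matricellular TGF-β target, at 342 and 64.9 CPM. *Nbl1*, a BMP antagonist, was at 485 and 86.5 CPM and *Fstl3*, which binds activins, at 121 and 14.4 CPM. *Id3* was at 288 and 57.7 CPM, the type I receptor gene *Bmpr1a* at 202 and 86.5 CPM, and *Ltbp3*, a carrier of latent TGF-β, at 133 and 64.9 CPM. *Thbs1*, a thrombospondin that can activate latent TGF-β, went the other way there, with 32.0 and 714 CPM. The difference in *Ager*, *Krt8* and cell number given above applies to all of these.

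The genes with the highest level on their lists had separate places. *Bmp3* was at 315 and 244 CPM in alveolar fibroblasts, *Acvrl1*, the endothelial type I receptor ALK1, at 1965 and 1563 CPM in aerocytes, and *Smad1* at 446 CPM in lymphatic endothelium of both libraries. *Ltbp2* was at 1006 and 1408 CPM in pericytes, and *Thbs1* at 2947 and 4042 CPM in platelets or megakaryocytes, the cells richest in *Tgfb1*. Among the BMP-induced targets it was *Id3*, described above.

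The genes with the most alike pattern were found by Pearson's r of log2(CPM + 10) over 32 points, 16 types in each of 2 libraries, among 7646 genes. Points of a type share their gate and points of a library share its depth, so r is a description and carries no p. *Bmp6* was most like *Tek* (r = 0.94), the receptor of angiopoietins, *Cd93* (0.94) and *Cyyr1* (0.92). *Bmpr2* was most like *Tmem100* (0.93), an endothelial gene downstream of ALK1, *Luzp1* (0.93) and *Tjp1* (0.93), and *Id1* was most like *Sox13* (0.89), *Smad6* (0.88) and *Luzp1* (0.88). *Bmp5* was most like *Tnfrsf19* (0.95), *Gm43050* (0.94) and the collagen gene *Col16a1* (0.93), *Tgfb3* like *Pappa* (0.91), *Rhobtb3* (0.90) and *Sema3d* (0.89), and *Tgfb2* like *Hspg2* (0.87), which encodes perlecan, *Ccn2* (0.87) and *Col5a2* (0.86). For *Tgfb1* these were *Bin1* (0.92), *Srgn* (0.92), the proteoglycan of blood cell granules, and *Sh3bgrl3* (0.89). The likeness was weaker for *Bmp4*, with *Myof* (0.88), *Wtip* (0.79) and *Ppic* (0.79), for *Tgfbr2*, with *Rab11fip5* (0.79), *Rab3il1* (0.77) and *Nrp2* (0.77), a receptor of lymphatic endothelium, and for *Tgfbr1*, with *Zfp36l1* (0.78), *Mdk* (0.76) and *Ptbp2* (0.75).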

How the data were processed

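Per the labels and the study's methods, the authors made 1 droplet-based library per genotype from suspended lung cells. Whether live cells were sorted is described differently in the sources, and shares are of the cells that were sequenced. The authors deposited whole UMI counts per gene and barcode, not normalized, from Cell Ranger on mm10 (version 5.0.0 in the headers, 6.1.1 in the submitters' processing notes), with 69200420 UMIs in the Cebpa FF and 64697396 in the Cebpa KO library.

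Lineages were gated on raw marker UMIs: at least 3 UMIs from at least 2 markers and 3 times the next lineage. Types within a lineage needed the same and 2 times the next type. Of 182 type markers, 17 found in over 25% of cells of other lineages in either library were not counted. Cells with mixed lineages were left out, which also removes many doublets. Counts were summed per type and library with Python 3.11.15, numpy 2.4.6 and scipy 1.17.1. Levels have exact Poisson intervals, shares exact binomial ones (Clopper-Pearson), and ratios exact conditional binomial ones, with sums floored at 3 counts, all at 95%. Thinning drew 1000 UMIs per cell and left out shallower cells. Free RNA was taken as the average profile of a library. Its subtraction was scaled to endothelial genes in epithelial types and to surfactant genes in all others. Interval coverage was tested only on simulated independent Poisson counts, the model on which the ratio intervals rest, and not on UMIs clustered by cell.

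The members and the lists of genes and markers were chosen with earlier results of these data known. Named were all members, the pathway genes past 2-fold in types where a member also was, up to 20 by UMIs, the highest gene of each list and the 3 most alike genes of each member, gate markers left out, among those reaching 50 CPM in some type of each library. Positions are those of GENCODE release M21. Named genes whose results are not reported here are still part of the counts.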

Additional observations from a re-analysis of the deposited data

Results flagged for a closer look

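*Tgfb2* differed between the libraries in opposite directions in different cell types, each beyond counting error. The log2 ratio of Cebpa KO over Cebpa FF was 1.09 in general capillary cells, where the gene was rare in both libraries. It was -2.02 in lymphatic endothelium, whose Cebpa KO cells were shallower, and -2.13 in AT1-gated cells. The last ratio rests on 5 UMIs in 21 Cebpa KO cells, in a type where 20.3% of genes were lower past 2-fold. As described above, the AT1-gated cells of the libraries also differed in *Ager*, *Krt8* and *Sprr1a*. The difference between these types was not tested, since there was 1 library per genotype.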

How the results depend on the processing

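Settings were changed singly: stricter gates, mixed cells kept, stricter cell filters, deep cells only, thinning, the deepest 5% of cells left out, another scaling, subtraction of free RNA and no floor. The number of genes with the same highest type in both libraries was 6 under every one of these that bears on it, but without the deepest cells *Id1* was highest in aerocytes of Cebpa FF and left the 6, and *Tgfbr1* (ductal myofibroblasts) entered. Under these settings, the 6 member pairs lower past 2-fold ranged from 5 to 9 except under thinning to 1000 UMIs, which left 0, and the 3 higher pairs became 5 with mixed cells kept and 1 under thinning. For the other pathway genes, thinning gave 3 lower and 6 higher pairs and leaving out the deepest cells 10 lower and 14 higher. Thinning left 36 of 101 member and 140 of 393 other pairs with 50 UMIs. Chosen after seeing the data, leaving out AT1-gated cells gave 12 lower pairs of other pathway genes, and leaving out the cell with most UMIs of a gene gave 7 lower and 4 higher member pairs. With a pseudocount of 1 in place of 10, 19 of the 30 most alike genes were shared. Of the single member ratios, 826 of 909 alternative values stayed within the interval of the reported one and 848 kept its sign. The 909 include values without the cell with most UMIs of a gene, and none without the floor. Thinning made 55 of the 83 values outside, and 77 of its 101 values kept their sign, with *Bmp6* in aerocytes at 0.10 and *Bmp4* in alveolar and adventitial fibroblasts at 0.10 and 0.27 among those that did not. None of the pairs past 2-fold changed sign. With mixed cells kept, *Tgfb2* in general capillary cells (0.92) and *Id1* in pericytes (-0.99) were no longer past 2-fold. Across the settings, further pairs came within 2-fold. The smallest ratios were -0.39 for *Bmp6* in arterial endothelium, 0.98 for *Tgfb1* in alveolar fibroblasts and -0.51 for *Id1* in pericytes. In AT1-gated cells they were 0.32 for *Bmpr2*, -0.51 for *Tgfb2* and -0.74 for *Tgfbr2*. Only *Bmp4* in arterial (-1.33) and *Tgfb2* in lymphatic endothelium (-1.66) stayed past 2-fold throughout. No paired analysis was possible because each genotype was 1 library. Of the 16 types, arterial endothelium, pericytes and AT1-gated cells had the fewest Cebpa KO cells, with 28, 24 and 21, which limits their results.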

Other observations

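Several leukocyte types of the Cebpa KO library were rich in BMP or TGF-β target genes, here named after their values were seen. *Id1* was at 633 CPM (535 to 745) in 39 basophils or mast cells, against 134 CPM in neutrophils and 67.4 CPM in alveolar macrophages. *Id2*, needed for innate lymphoid development, was at 1087 CPM in NK cells and 716 CPM in dendritic cells. *Tgfbi* was at 532 CPM in C1q macrophages and *Skil*, a repressor of SMAD signalling, at 368 CPM in dendritic cells. None of these has a Cebpa FF counterpart with at least 20 cells. The 10 basophils or mast cells of Cebpa FF held 43 *Id1* UMIs in 69016, so *Id1* was not particular to those of Cebpa KO.

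*Gdf2* and *Bmp10*, which encode the circulating ligands of ALK1, BMP9 and BMP10, were close to absent, with 1 and 4 UMIs of *Gdf2* in the Cebpa FF and Cebpa KO library and 0 of *Bmp10* in both. For *Bmp10*, 3 counts would correspond to 0.044 and 0.047 CPM of a library. These are ligands made in liver and heart.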
